A study of Homo sapiens with 5 samples.

Results

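The regions described here are FOXK1 peaks found alone, that is, places listed for FOXK1 where neither ASXL1 nor O-GlcNAc was listed and which did not lie in a dense cluster of FOXK1 peaks. They were selected on the deposited peak positions. A FOXK1 peak on chromosomes 1 to 22 or X was kept when it shared no base with any ASXL1 or O-GlcNAc peak, and when its 100 kb bin held fewer than 10 FOXK1 peaks. Of 21481 FOXK1 peaks on these chromosomes, 11103 overlapped at least 1 of the other lists, and 513 of the remaining 10378 lay in dense bins. This left 9865 lone FOXK1 peaks, 45.9% of the FOXK1 peaks on these chromosomes (95% Wilson interval 45.3 to 46.6).

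FOXK1 is a forkhead transcription factor. It binds DNA through its forkhead domain and carries a forkhead-associated domain through which it contacts partner proteins, the deubiquitinase BAP1 among them. ASXL1 is an activating subunit of BAP1. O-GlcNAc is a sugar placed on nuclear proteins by the enzyme OGT, which is found together with the BAP1 complex. FOXK1 is also known as a repressor of autophagy genes, acting with SIN3 corepressors, and as an activator of glycolysis genes. Lone FOXK1 peaks are therefore the places where the FOXK1 antibody gave a peak without a listed peak of either BAP1-linked target.

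The study used chromatin immunoprecipitation with sequencing (ChIP-seq). The cells were of the Flp-In HEK293 T-REx line, an established human embryonic kidney line engineered with a recombination site and a tetracycline repressor. The labels name no treatment or transgene in any library. FOXK1 was precipitated from chromatin preparation 62, and ASXL1 and O-GlcNAc from preparation 63, with 1 library per antibody and 1 input library per preparation. Antibody and chromatin preparation cannot be told apart where FOXK1 is set against the other targets, and no value below has a replicate error. The intervals cover counting error over peaks only, and sequencing depth is unknown. A peak without a listed partner is one whose partner did not reach the lowest listed score of 50, not a place shown to lack ASXL1 or O-GlcNAc.

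Lone FOXK1 peaks were mostly low-scoring and narrow. Each peak carries a score from the caller that the authors ran. The sources used here do not say what it measures, so it may be a significance value rather than a height, and it is used only to rank peaks within a list. The top FOXK1 score, 3100, is shared by 10 peaks on these chromosomes and may be a ceiling. The median score of lone peaks was 64.2 (95% interval of the median 63.8 to 64.6), and the middle 50% of scores lay between 55.6 and 82.8. A score of at least 100 was reached by 1572 lone peaks, or 15.9% (interval 15.2 to 16.7), where 33.7% of all FOXK1 peaks on these chromosomes reached it. A score of at least 200 was reached by 306 of them and a score of at least 500 by 40. The median width was 382 bp, with the middle 50% of widths between 338 and 440 bp. Together the lone peaks covered 4.17 Mb, 35.7% of the bases under FOXK1 peaks on these chromosomes.

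The FOXK1 peaks that overlapped another list are given beside them as a description, since overlap itself chose the members. Peaks that overlapped O-GlcNAc alone had a median score of 77.9, those that overlapped ASXL1 alone 83.8, and those that overlapped both 118. Their median widths were 421, 469 and 690 bp in the same order. The 513 lone peaks of dense bins were unlike those outside them, with a median score of 92.0 and a median width of 476 bp. The order of scores thus ran from lone peaks outside dense bins, the lowest, to peaks with both partners, the highest.

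**Figure D1:**
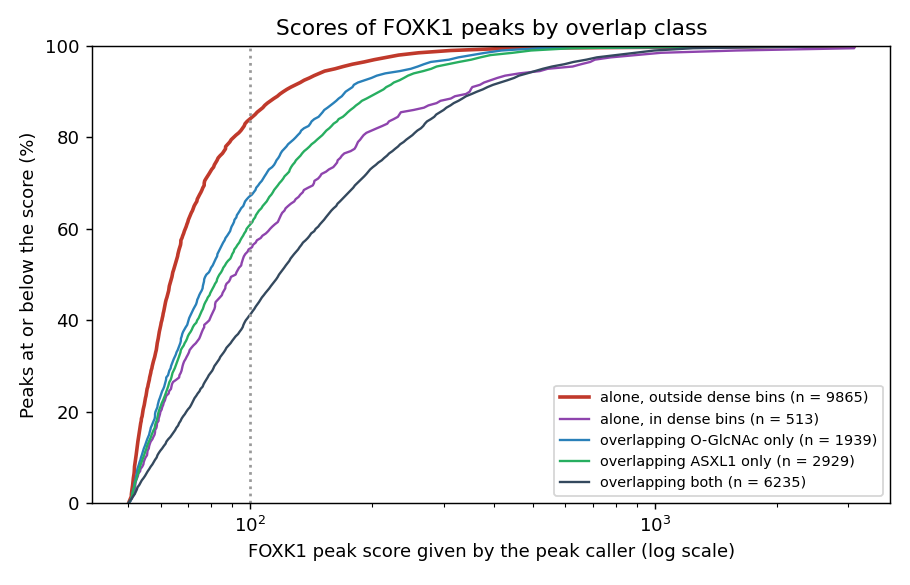
Cumulative share of FOXK1 peaks (vertical axis, percent) at or below each peak score (horizontal axis, log scale), with 1 line per overlap class and a dotted line at a score of 100. Over most of its length the line of lone peaks outside dense bins lies to the left of the others, with a median of 64.2 against 118 for peaks that overlap both other lists, but its highest scores reach 3100, above those of the peaks with 1 partner.

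Over all FOXK1 peaks on these chromosomes, score and width had a Spearman's rho of 0.49, so scores were also read within the middle 50% of FOXK1 widths, from 364 to 623 bp. There, 5511 lone peaks had a median score of 62.6 (interval 62.0 to 63.2) and 5019 peaks with a partner had a median of 86.3 (interval 84.3 to 88.6). Widths still differed inside this range, with medians of 403 and 480 bp. It was therefore divided further, into 5 width classes chosen after the values had been seen. In the class beginning at 364 bp, where both kinds of peak had a median width of 384 bp, the median scores were 54.7 for lone peaks (interval 54.6 to 54.9) and 61.4 for peaks with a partner (interval 60.6 to 62.5). In the class beginning at 550 bp, with median widths of 582 and 583 bp, they were 94.2 (interval 87.5 to 97.95) and 111 (interval 106 to 116). Lone peaks had the lower median in each of the 5 classes, by less than over the whole range. Split into 10 classes of rising score, FOXK1 peaks were lone peaks in 69.4% of cases in the lowest class (interval 67.4 to 71.3), with scores up to 53.1. The share fell from class to class and was 10.99% in the highest class (interval 9.73 to 12.4), which began at 221. Lone peaks were still present near the top of the list, with 85 among the 1000 highest FOXK1 scores and 9 among the 100 highest.

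Most lone peaks had another target within 10 kb, as had 50.8% of the length of these chromosomes. The median gap from a lone peak to the nearest peak of either other list was 4.44 kb, and the middle 50% of gaps ran from 1397 to 11683 bp. A gap of at most 1000 bp was found for 1904 lone peaks (19.3%, interval 18.5 to 20.1) and a gap of at most 10 kb for 7020 (71.2%, interval 70.3 to 72.0). The other lists are long, so this closeness has a high background: 10.5% of the 2854 Mb of these chromosomes, leaving out the longest stretch without peaks of each, lay within 1000 bp of an ASXL1 or O-GlcNAc peak, and 96.0% within 100 kb. Over 100 kb from both lists lay 147 lone peaks (1.49%). These shares of length count positions, the bases under the peaks included, and the difference from the shares of lone peaks was not tested.

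Neither of the other targets was clearly the nearer one. The nearest ASXL1 peak was 8.98 kb away in the median and the nearest O-GlcNAc peak 8.38 kb. ASXL1 was the nearer for 4854 lone peaks (49.2%) and O-GlcNAc for 5005 (50.7%), although the ASXL1 list was longer, with 94237 peaks against 78825. Within 10 kb, 3614 lone peaks had peaks of both lists, 1592 had ASXL1 alone, 1814 had O-GlcNAc alone, and 2845 (28.8%) had neither.

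**Figure D2:**
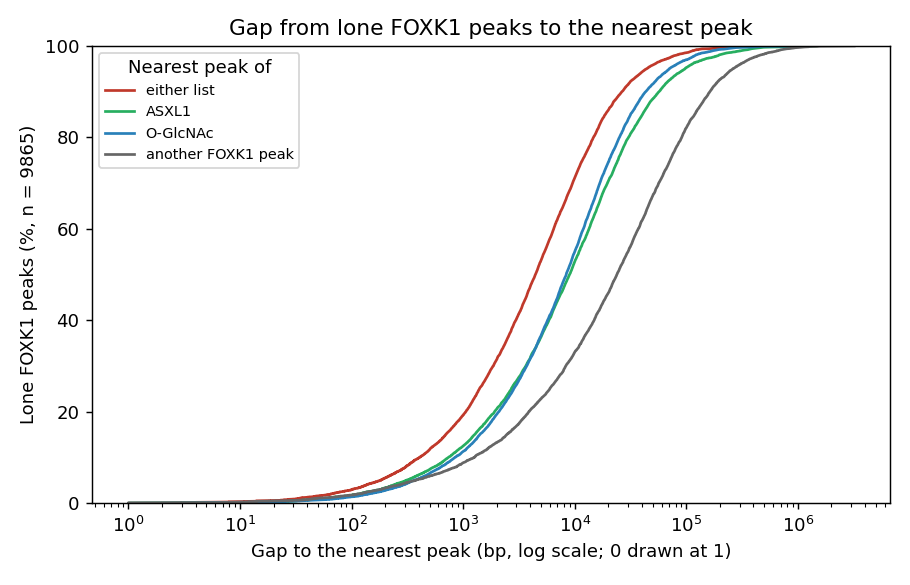
Cumulative share of the 9865 lone FOXK1 peaks (vertical axis, percent) by the gap in bp (horizontal axis, log scale) to the nearest peak of ASXL1, of O-GlcNAc, of either, and to the nearest other FOXK1 peak. The ASXL1 and O-GlcNAc lines run close together, with medians of 8.98 and 8.38 kb, and the nearest FOXK1 peak was farther, at 23.9 kb.

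The closest neighbours of lone peaks scored near the medians of their lists and below the peaks that FOXK1 overlapped. ASXL1 peaks within 1000 bp of a lone FOXK1 peak had a median score of 76.4 (interval 73.1 to 79.0, 1235 lone peaks), near the 74.2 of the whole ASXL1 list. ASXL1 peaks that overlapped a FOXK1 peak had a median of 189. For O-GlcNAc the median was 68.8 within 1000 bp (interval 67.2 to 70.8, 1118 lone peaks), 67.1 over the whole list and 125 where a FOXK1 peak overlapped. Each score is read against its own list, because scores cannot be compared between lists.

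The number of other-list peaks around a lone peak was also counted within 50 kb of its centre, leaving out overlapping peaks so that shared peaks gain nothing from their own partner. Lone peaks had a median of 4 ASXL1 peaks and 4 O-GlcNAc peaks around them. FOXK1 peaks with a partner had 6 and 5. No ASXL1 peak lay within 50 kb for 11.7% of lone peaks, against 3.77% of FOXK1 peaks with a partner, and no O-GlcNAc peak for 8.40% against 3.31%. Lone peaks of dense bins stood further apart, since 54.0% of them had no ASXL1 peak and 41.1% no O-GlcNAc peak in that distance. Of these 513 peaks, 271 lay within 1 Mb of the longest stretch of their chromosome without any peak, described below. The 340 lone peaks outside dense bins that lay that near had no ASXL1 peak in 62.1% of cases and no O-GlcNAc peak in 50%. For the other 9525 it was 9.88% and 6.92%.

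Among lone peaks, the score changed little with the gap to the nearest other target up to 100 kb. The median score was 65.8 for gaps of up to 100 bp (293 peaks), 65.6 from there to 1000 bp (1611 peaks), 63.9 from there to 10 kb (5116 peaks) and 63.2 from there to 100 kb (2698 peaks). The share with a score of at least 100 was 16.04%, 16.8%, 15.3% and 15.5% in the same order. Beyond 100 kb the median was 76.2 and 36.1% of 147 peaks reached 100 (interval 28.7 to 44.1). Of those 147 peaks, 73 lay within 1 Mb of the longest stretch of their chromosome without any peak, described below. In the other 74 the median was 65.3 and 18.9% reached 100.

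The few peaks on either side of the overlap limit give only a rough comparison. The 35 lone peaks with a gap of at most 10 bp had a median score of 66.1 (interval 59.4 to 82.8), and the 32 FOXK1 peaks that were left out for a total overlap of 1 to 10 bp had a median of 60.7 (interval 55.7 to 66.4). Their median widths were 376 and 380 bp. The nearest lone peaks show how thin the limit is. The peak at chromosome 1, positions 64507326 to 64507825 (hg19, score 76.3), ended or began exactly where an ASXL1 peak of score 73.8 did. The peak at chromosome 12, positions 67782532 to 67782864 (score 58.6), touched an O-GlcNAc peak of score 59.3 in the same way. On chromosome 10, positions 28976490 to 28976852 (score 55.0), the touching peak was an ASXL1 peak of score 67.3. A higher-scoring peak, at chromosome 21, positions 35464763 to 35465375 (score 250), lay 1 bp from an ASXL1 peak of score 61.8. The peak at chromosome 5, positions 147161449 to 147161866, scored only 59.99 and lay 1 bp from an ASXL1 peak of score 504.

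Lone peaks lay in bins that the rule had already limited to fewer than 10 FOXK1 peaks, and 82.1% had another FOXK1 peak within 100 kb. They occupied 7065 bins of 100 kb, and 3330 of them were the only FOXK1 peak of their bin. The median gap to the nearest other FOXK1 peak was 23.9 kb for lone peaks (interval 22848 to 24978 bp). It was 17.1 kb for the 10826 FOXK1 peaks with a partner outside dense bins (interval 16454 to 17876 bp). Another FOXK1 peak lay within 10 kb of 33.1% of the former and of 39.1% of the latter. The nearest FOXK1 peak was itself without a partner for 53.3% of lone peaks and for 39.7% of those with a partner, where 48.3% of all FOXK1 peaks on these chromosomes had none. Overlap and bin counts chose the members, so these values are a description from which nothing is read.

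Among the bins that the rule kept, the share of FOXK1 peaks without a partner was highest where a FOXK1 peak stood singly. It was 53.4% in bins with 1 FOXK1 peak (interval 52.1 to 54.6), 46.6% in bins with 2, and between 41.5% and 46.8% in bins with 3 to 9. At the limit of the rule, bins with 9 FOXK1 peaks held 102 lone peaks with a median score of 69.2. Bins with 10, which were left out, held 94 peaks without a partner with a median of 77.5, and the share without a partner there was 58.8%. Scores of lone peaks were higher in fuller bins, though not at every step, from a median of 62.9 in bins with 1 peak to 69.2 in bins with 9, and the share with a score of at least 100 went from 12.6% to 23.5%.

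Of the 9 lone peaks with a score of at least 1000, 7 lay within 1 Mb of a long stretch without peaks, but at a score of at least 100 it was 118 of 1572 (7.51%), against 4.03% of all FOXK1 peaks with such a score. On each chromosome the longest stretch with no peak in any of the 3 lists was taken. In hg19 each centromere is represented by a block of unknown bases to which no read can be mapped, and these stretches were 3.00 to 21.1 Mb wide. On chromosomes 13, 14, 15, 21 and 22, whose short arms are not assembled in hg19, the stretch began at position 1. Within 1 Mb of such a stretch lay 340 lone peaks, or 3.45% of them, where 3.20% of all FOXK1 peaks lay that near. Within 5 Mb it was 9.25% of lone peaks and 9.26% of all FOXK1 peaks. The rule itself lowered the share within 1 Mb, since 271 FOXK1 peaks without a partner within 1 Mb of a stretch lay in dense bins. With no bin left out, the share was 5.89% of 10378 peaks. Lone peaks within 1 Mb of a stretch had higher scores, with 118 of 340 (34.7%, interval 29.8 to 39.9) at 100 or more against 15.3% of the 9525 lone peaks farther away. Among peaks of middle width the difference was small, with a median score of 63.2 near a stretch (interval 59.1 to 67.8, 164 peaks) and 62.6 farther away (interval 62.0 to 63.2, 5347 peaks), and with 20.7% and 15.4% at 100 or more. The stretches end at listed peaks, so a lone peak can itself be the edge.

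The share near a stretch was larger at higher scores among lone peaks and among FOXK1 peaks as a whole, but not among those with a partner. For FOXK1 peaks with a partner it was 0.62%, 0.66%, 0.51% and 0% at scores of at least 100, 200, 500 and 1000. Of the 306 lone peaks with a score of at least 200, 54 (17.6%, interval 13.8 to 22.3) lay within 1 Mb of the stretch, where 5.29% of all FOXK1 peaks with such a score did. At a score of at least 500 it was 19 of 40 lone peaks (47.5%, interval 32.9 to 62.5) and 9.15% of all FOXK1 peaks. At a score of at least 1000 it was 7 of 9 lone peaks and 14.1% of all. Lone peaks are part of each total. Among FOXK1 peaks with a score of at least 500, 21 of the 30 that were left out as lone peaks of dense bins lay there, and 2 of the 389 with a partner (0.514%). Of the 29 lone peaks of 2000 bp or more, 24 lay there. In all, 110 FOXK1 peaks were that wide, 18 of them lone peaks of dense bins and 63 with a partner. How many of all 110 lay there is not given here. Most FOXK1 peaks in these places lacked a partner, including those in dense bins. Within 1 Mb of a stretch, 88.9% of 687 FOXK1 peaks overlapped neither other list (interval 86.4 to 91.1). Within 0.1 Mb it was 97.9% of 287 (interval 95.5 to 99.04), against 47.0% of those over 1 Mb away. The other lists were sparse near a stretch, where 62.1% of lone peaks within 1 Mb had no ASXL1 peak within 50 kb. The repeat content of these places and the number of reads behind them were not tested, because no genome sequence of the build and no reads were used here.

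**Figure D3:**
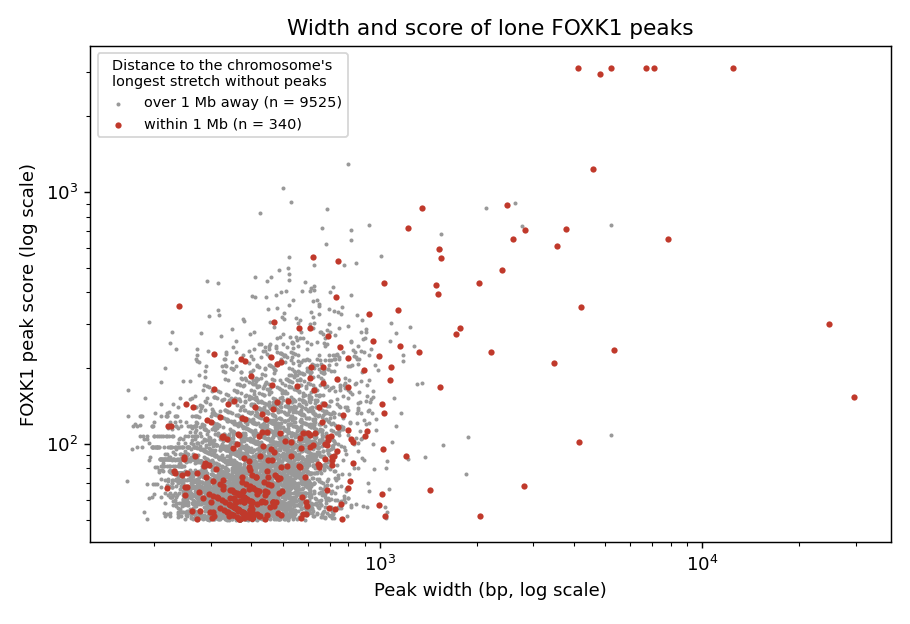
Score (vertical axis, log scale) against width in bp (horizontal axis, log scale) of each lone FOXK1 peak, with red points for the 340 peaks within 1 Mb of the longest stretch without peaks of their chromosome and grey points for the other 9525. The points wider than 2000 bp and those at a score of 3100 are mostly red.

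By score, 7 of the 10 highest lone peaks outside chromosome 8, whose 383 lone peaks were counted but not named, lay beside a stretch. Scores of 3100 were listed for 5 lone peaks, which thus share the first place. The widest of these was at chromosome 10, positions 42354859 to 42367372, a peak of 12.5 kb, which formed the edge of the stretch of that chromosome. Its nearest O-GlcNAc peak was 127 kb away and its nearest ASXL1 peak 441 kb away. On the same chromosome, positions 42367410 to 42372222 scored 2941.55 and began 37 bp after it, and positions 42596615 to 42600743 were listed at 3100. At chromosome 6, positions 58773549 to 58780249, a peak of 6.70 kb listed at 3100 also formed the edge of a stretch.

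A single 100 kb bin of chromosome 4 held 8 lone peaks between positions 49633308 and 49660149. They covered 25.6 kb in all, their scores ran from 112 to 3100 with a median of 877, and the last of them formed the edge of the stretch. With fewer than 10 FOXK1 peaks, the bin was kept by the rule. Positions 49638561 to 49645683 and 49633308 to 49638518 were both listed at 3100 and stood 42 bp apart, and positions 49651814 to 49656415 scored 1234.12. The nearest ASXL1 peak of these 3 was 356 to 374 kb away, and the nearest O-GlcNAc peak was 433 to 451 kb away.

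Width and score did not always go together in these places. The widest lone peak, at chromosome 16, positions 46385721 to 46415401, was 29.7 kb wide and scored 153. The next, at chromosome 4, positions 49093204 to 49117977, was 24.8 kb wide and scored 301. Both were named after their values had been seen.

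The remaining 3 of the 10 highest were under 1000 bp wide and lay far from any stretch. The peak at chromosome 1, positions 65729973 to 65730770 (798 bp), scored 1289.55 and was the only FOXK1 peak of its bin. It lay 280 bp from an ASXL1 peak of score 311 and 509 bp from an O-GlcNAc peak of score 83.0, so it flanked both without sharing a base. The peak at chromosome 6, positions 90649992 to 90650491 (500 bp), scored 1042.02. Its nearest ASXL1 peak was 4.69 kb away with a score of 66.9, and its nearest O-GlcNAc peak 21.3 kb away with a score of 71.4. The peak at chromosome 3, positions 196625541 to 196626069 (529 bp), scored 914 with neighbours at 7.42 and 7.83 kb. The nearest ASXL1 peak of chromosome 3 scored 73.05 and the nearest O-GlcNAc peak 56.5, against list medians of 74.2 and 67.1.

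Among peaks of middle width, those on chromosomes 6 and 3 just given were the highest. Next came chromosome 6, positions 3002056 to 3002480, a peak of 425 bp with a score of 828. An ASXL1 peak of score 293 lay 1.62 kb from it. Chromosome 3, positions 153850724 to 153851245, followed with a score of 553 and an ASXL1 peak of score 79.3 at 257 bp. The fifth, at chromosome 7, positions 61264158 to 61264780 (score 551), lay 209 kb from a stretch and 1250 kb from the nearest ASXL1 peak. Of these 5 peaks, the one on chromosome 7 was thus the only one far from both other lists, and it was also the one near a stretch.

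The lone peaks with a score of at least 100 that lay farthest from both lists were on chromosomes 9, 7 and 4. At chromosome 9, positions 66973280 to 66974007 (score 218), both gaps were 419 kb. At chromosome 7, positions 61055356 to 61055965 (score 288), the nearest O-GlcNAc peak was 383 kb away and the peak formed the edge of the stretch. The other 3 belonged to the group on chromosome 4 already described. Of these 5, the peak on chromosome 9 was the farthest from a stretch, at 1397 kb.

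Away from the stretches, 316 of the 1454 lone peaks with a score of at least 100 had another target within 1000 bp, and 371 had none within 10 kb. Of all 9525 lone peaks there, 15.3% had such a score. By gap it was 15.9% up to 100 bp, 16.9% up to 1000 bp, 15.2% up to 10 kb, 14.2% up to 100 kb and 18.9% beyond, so these counts lay near the background. The median width of the 1454 peaks was 483 bp, against 690 bp for the 118 that lay near a stretch. A few high-scoring lone peaks lay at the first bases of a chromosome. Positions 9922 to 12055 of chromosome 5 scored 864, and positions 20220 to 21229 of chromosome 7 scored 556. In all, 6 lone peaks began in the first 100 kb of a chromosome, with scores from 52.9 to 864, and they too were named after their values had been seen.

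Lone peaks were not spread evenly over chromosomes. Their density, taken over the length up to the last listed peak without the stretch, was highest on chromosome 1, at 5.42 per Mb, followed by chromosome 6 at 5.30, chromosome 10 at 5.25, chromosome 21 at 4.97 and chromosome 5 at 4.82. It was lowest on chromosome 11, at 2.02 per Mb, and on chromosome 2, at 2.06. The order at the top depended on the length used, since with the stretch counted chromosome 6 was highest at 5.21, chromosome 1 was at 4.96 and chromosome 21 at 3.99. The median score of lone peaks varied less, from 60.7 on chromosome X to 69.0 on chromosome 22.

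As a share of each chromosome's FOXK1 peaks, lone peaks made up between 31.2% and 52.6%. Chromosome 19 had the lowest share, 166 of 532 (31.2%, interval 27.4 to 35.3). Chromosomes 11, 17 and 16 followed with 37.9%, 38.3% and 38.7%, and their intervals overlapped each other. Chromosomes 21 and 13 had the highest shares, 52.6% (interval 47.5 to 57.7) and 51.6% (interval 47.5 to 55.7), which did not differ beyond their intervals. Overlap with the other lists chose the lone peaks, so these shares are a description, and nothing is read from the order of chromosomes.

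Chromosome 19 was itself uneven. Within 1 Mb of its stretch, 32 of 34 FOXK1 peaks were lone peaks, and they made up 19.3% of the lone peaks of the chromosome. Farther away, 134 of 498 FOXK1 peaks were lone peaks (26.9%). Over all chromosomes it was 340 of 687 (49.5%) within 1 Mb of a stretch and 45.8% of 20794 farther away. With dense bins counted, 88.9% of the 687 overlapped neither other list. Other chromosomes varied, with 12 of 12 lone peaks near the stretch on chromosome 22 and 31 of 97 on chromosome 10. On chromosome 19 the median scores of lone peaks were 66.5 near the stretch and 64.2 farther away. The near group was thus not among the highest-scoring ones.

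**Figure D4:**
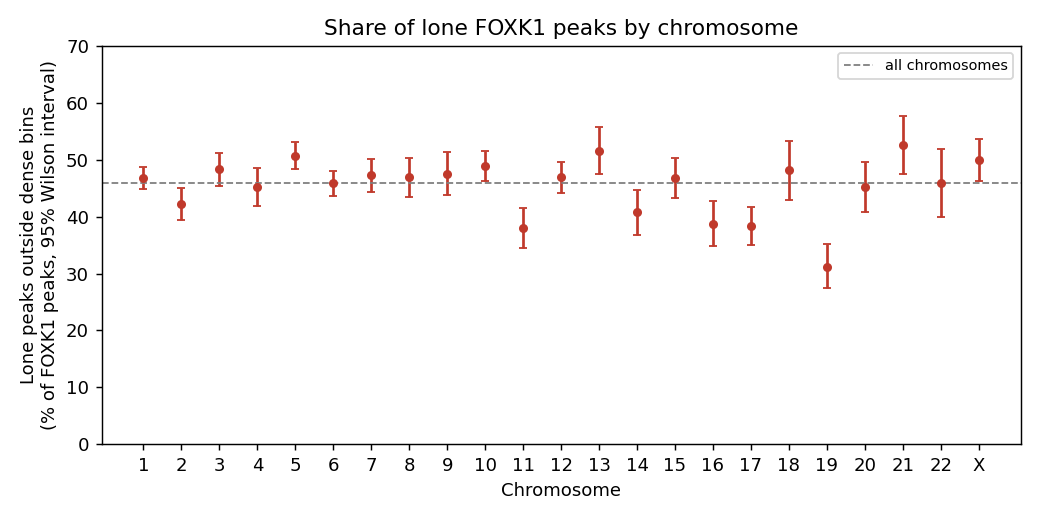
Lone FOXK1 peaks outside dense bins as a percentage of all FOXK1 peaks of each chromosome (points, with 95% Wilson intervals as bars), with a dashed line at the 45.9% of all chromosomes. Chromosome 19 is lowest at 31.2%, and chromosomes 21 and 13 are highest.

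Chromosome arms, divided at the stretches, covered a continuous range of densities, on which a limit of 4 lone peaks per Mb was set after the values had been seen. Of 41 arms of at least 5 Mb, 16 held 4 or more lone peaks per Mb, with up to 6.33 on the short arm of chromosome 10 and 5.97 on the long arm of chromosome 1. The other 25 ranged from 1.67 on the short arm of chromosome 19 to 3.99 on its long arm. The 16 arms above the limit had 29.6 to 49.0 O-GlcNAc peaks per Mb (median 36.8), and the other 25 had 13.5 to 52.3 (median 21.02). For ASXL1 the medians were 38.7 and 24.5 per Mb, with ranges of 31.6 to 64.97 and 16.8 to 86.8. The ranges overlapped for both, with the long arm of chromosome 19 holding the 52.3 and the 86.8.

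The density of lone peaks per arm followed that of O-GlcNAc more closely than that of ASXL1. Over the 41 arms, Spearman's rho was 0.84 with O-GlcNAc peaks per Mb, 0.70 with FOXK1 peaks that had a partner, and 0.61 with ASXL1 peaks per Mb. The same order held over the 599 windows of 5 Mb with any peak, with rho of 0.74, 0.70 and 0.60. ASXL1 and O-GlcNAc both came from the other chromatin preparation. The FOXK1 peaks with a partner came from the same library as the lone peaks, and overlap with those other lists defined them. The points share the cell line and the mappable length of each arm, and the part of either in these relations was not tested. Overlap with the ASXL1 and O-GlcNAc lists chose the lone peaks, so these relations are a description. For the lone share of FOXK1 peaks on the 23 chromosomes, rho was -0.06 with O-GlcNAc and -0.35 with ASXL1 peaks per Mb. No difference between any of these coefficients was tested.

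**Figure D5:**
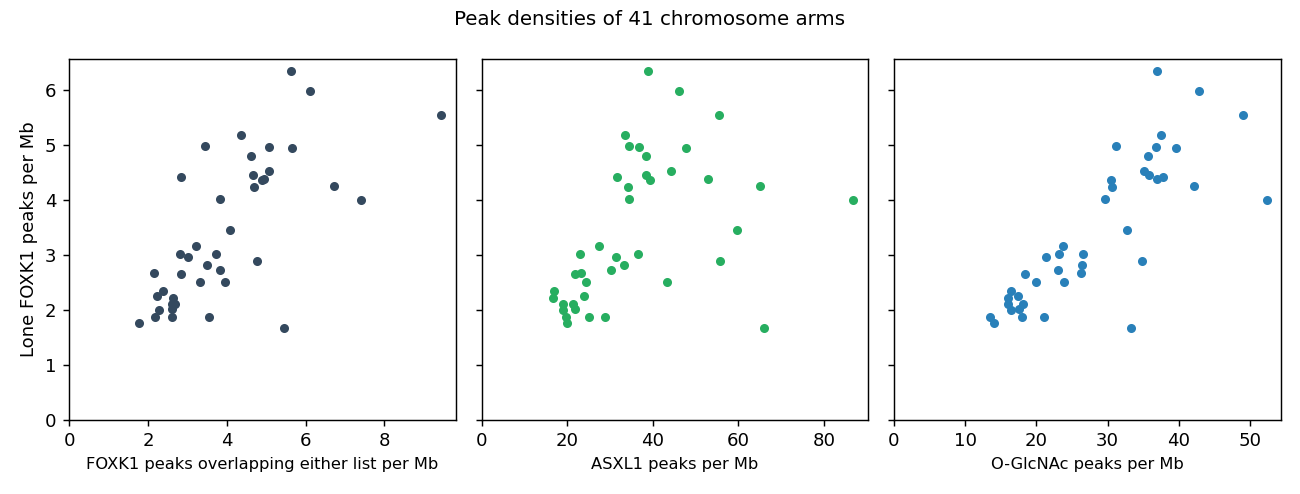
Lone FOXK1 peaks per Mb (vertical axis) against the density per Mb of 3 kinds of peak (horizontal axes: FOXK1 with a partner, ASXL1, O-GlcNAc), with 1 point for each of 41 chromosome arms. The points of the O-GlcNAc panel lie closest to a line, with a rho of 0.84, and the short arm of chromosome 19 is the lowest point at 1.67 lone peaks per Mb.

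In windows of 5 Mb the median number of lone peaks was 14, with the middle 50% of windows between 8 and 22. The fullest window, at chromosome 1, positions 230000001 to 235000000, held 74 lone peaks beside 58 FOXK1 peaks with a partner, 361 ASXL1 and 431 O-GlcNAc peaks. The next 2 windows of that chromosome held 52 and 55 lone peaks, so the end of its long arm was rich in them. A window of chromosome 21, positions 35000001 to 40000000, held 69 lone peaks beside 50 with a partner. These windows were named after their counts had been seen. At the other end, 12 windows held a peak of some list but no lone FOXK1 peak.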

How the data were processed

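ChIP-seq peak lists of 3 libraries were used. The submitters' processing notes name Bowtie2 2.0.0, MACS 1.4 and hg19, with no settings. Each deposited list gives a position and a score per peak, as the authors' caller wrote it, from 1 library and not pooled. The scores begin at 50 and are used only within a list. The highest FOXK1 score was shared by 10 peaks on chromosomes 1 to 22 and X. The highest ASXL1 score was shared by 2 peaks, and the highest O-GlcNAc score was held by 1. Read numbers, and hence depth, are not given in the sources used here, and the inputs were not analysed here. Coordinates are hg19, from position 1.

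The member rule, gaps, counts within 50 kb, densities and shares were computed in Python 3.11.15 with numpy 2.4.6, pandas 2.3.3 and SciPy 1.17.1. The interval functions were tested on simulated data. Shares have 95% Wilson intervals and medians binomial order-statistic intervals, and no p-value was computed. Named positions were the 10 highest-scoring lone peaks, the 5 farthest with a score of at least 100, the 5 nearest to another list, and the 5 highest of middle width, outside chromosome 8. The members and the tests were chosen with earlier results of these data known. Gene names, motifs and base composition were not examined, since no annotation or sequence of hg19 was used here.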

Additional observations from a re-analysis of the deposited data

How the results depend on the processing

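With only FOXK1 peaks of score 100 or more, 1667 lone peaks were counted, with a median score of 133 and a median width of 495 bp. Then 68.6% had another target within 10 kb, 23.6% had a FOXK1 peak within 10 kb, 14.1% of the FOXK1 peaks of chromosome 19 were lone, and 10.5% lay within 1 Mb of a stretch. A score of 100 or more in all 3 lists gave 2894 lone peaks with a median score of 136. These settings shorten the lists by construction.

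When a gap of up to 1000 bp also counted as shared, the same 4 shares were 64.3%, 28.7%, 26.7% and 4.06%. With no dense bin left out, they were 69.8%, 36.1% and 5.89%, with chromosome 19 as before, and the median score was 64.7. Leaving out bins with 5 or more peaks gave a median score of 63.8, and peaks of middle width gave 62.6. Within 5 Mb of a stretch lay 9.25% of lone peaks, and 9.26% of all FOXK1 peaks. For these values the cause was not tested. The number of lone peaks was between 7961 and 10378 under the 7 settings that kept all scores.

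Results that need an annotation or sequence of hg19 were not run. With 1 library per antibody, no library was left out in turn. Depth is unknown, and the median score of lone peaks, 64.2, was not far above the lowest listed score of 50.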

Other observations

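Outside the chromosomes used above, the FOXK1 list held 216 peaks, of which 189 overlapped neither other list. On chromosome Y it was 92 of 97, and on the contigs without a place 97 of 119. These peaks have no part in the values above.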
